A study of Mus musculus with 25 samples.

Results

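Expression of 10 genes of the p53 and GADD45 stress response (*Trp53*, *Cdkn1a*, *Mdm2*, *Gadd45a*, *Gadd45b*, *Gadd45g*, *Trp53inp1*, *Sesn1*, *Ccng1* and *Plk2*) was followed in the *soleus* of WT and mD3AKO mice at rest and 60 minutes after treadmill running. The genes were taken by symbol from a count table of 52636 genes, and all 10 were among the 16340 genes with enough reads to be tested. RNA came from 25 C57BL/6 mice of 12 weeks, 1 library per mouse. WT mice carried *Dnmt3a* flox/flox without Cre, and mD3AKO mice carried *Dnmt3a* flox/flox together with the *mCK-Cre* transgene, so that the loxP sites round exon 19 were shared by both genotypes. The rested mice (5 WT and 7 mD3AKO) had spent 30 minutes in a sham treadmill arena, and the exercised mice (7 WT and 6 mD3AKO) had run for 30 minutes at 16 m/min on a 5% incline. Cre is under the muscle creatine kinase promoter, which is active in mature fibers, and other cells in the bulk tissue are not its target. Of the 25 mice, 12 were female and 13 male. Females and males numbered 2 and 3 in the rested WT and 4 and 3 in the exercised WT group. In mD3AKO mice they numbered 3 and 4 at rest and 3 and 3 after exercise.

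The p53 protein, encoded by *Trp53*, is a transcription factor that is kept low by the ubiquitin ligase MDM2, itself a p53 target, and that is stabilized when DNA or metabolism is disturbed. Its targets include the cyclin-dependent kinase inhibitor p21 (*Cdkn1a*), the sestrin that restrains mTORC1 signalling (*Sesn1*), cyclin G1 (*Ccng1*), a nuclear protein that promotes autophagy (*Trp53inp1*) and the polo-like kinase *Plk2*. The 3 GADD45 proteins are small stress sensors that bind PCNA, CDK1 and the kinase MAP3K4, and in skeletal muscle *Gadd45a* and *Cdkn1a* are known as genes of the denervated and unloaded fiber.

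The promoters of *Gadd45g*, *Cdkn1a* and *Plk2* are shown first because the RNA of these 3 genes changed with exercise, and the start of *Cdkn1a* is a textbook p53-controlled start. RefSeq windows of 300 bases (GRCm38.p6, from 250 bases before to 50 bases after the start) matched 9 of the 10 genes, with 11 windows, and *Trp53inp1* had no entry. Each run gives the 150 bases before the transcription start, 5′ to 3′ on the strand of the gene. Capitals mark letters that match a p53 half-site, a CCAAT box, an E-box, a TATA box or a cAMP response element. The letters searched for the E-box were CACGTG. Those of the TATA box were TATAAA. The cAMP response element, where CREB binds, was searched as TGACGTCA. For AP-1, the dimer of FOS and JUN proteins, the letters were TGANTCA. Every motif was searched on both strands, and none of them contains another. The AP-1 site and the GC box, spelled GGGCGG, were counted but are not marked.
Gadd45g, chr13:51846525-51846674, + strand: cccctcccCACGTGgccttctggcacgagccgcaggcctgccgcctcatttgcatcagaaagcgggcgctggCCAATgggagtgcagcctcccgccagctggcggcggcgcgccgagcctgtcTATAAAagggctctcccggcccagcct
Cdkn1a, chr17:29090829-29090978, + strand: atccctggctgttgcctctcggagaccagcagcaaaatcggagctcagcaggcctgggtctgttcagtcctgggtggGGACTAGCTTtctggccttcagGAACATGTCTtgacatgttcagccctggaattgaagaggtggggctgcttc
Plk2, chr13:110394894-110395043, + strand: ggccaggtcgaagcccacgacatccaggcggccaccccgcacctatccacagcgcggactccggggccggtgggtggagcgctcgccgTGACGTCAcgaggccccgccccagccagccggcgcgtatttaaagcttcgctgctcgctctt
The *Gadd45g* run holds an E-box from position -142 (the base before the start is -1), a CCAAT box from -78 and a TATA box from -27. The upstream of the 2 *Cdkn1a* starts has p53 half-site matches from -73 and -51. In *Plk2*, a cAMP response element begins at -62. Over all 32851 windows of the same length, a p53 half-site was found in 8.36%, an E-box in 7.15%, a CCAAT box in 37.4%, a TATA box in 13.6%, a GC box in 35.7%, an AP-1 site in 7.81% and a cAMP response element in 1.79%.

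A p53 half-site was read as 3 purines, C, 2 bases of A or T, G and 3 pyrimidines. A match was present in 6 of the 11 windows, which belonged to 6 of the 9 genes. Besides *Cdkn1a* these genes were *Trp53*, *Mdm2*, *Gadd45a*, *Ccng1* and, at the downstream of its 2 starts, *Sesn1*. The windows of *Gadd45b*, *Gadd45g* and *Plk2* held no match. The matches are shown with 10 bases on each side, capitals marking the half-site.
Mdm2, positions -186 to -177: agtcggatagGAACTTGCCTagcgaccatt
Sesn1, positions -173 to -164: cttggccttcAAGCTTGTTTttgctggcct
Ccng1, positions -185 to -176: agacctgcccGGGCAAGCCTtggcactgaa
Trp53, positions -75 to -66: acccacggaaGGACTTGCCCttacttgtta
Gadd45a, positions -40 to -31: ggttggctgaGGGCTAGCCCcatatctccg
Of the 3 genes that changed with exercise, *Cdkn1a* thus had 2 matches at its upstream start and none at its downstream start, and the other 2 had none.

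Counts per library ranged from 22671457 to 37431801, with a median of 32189360. Mouse 15, a rested mD3AKO male, had the fewest counts and 39.5% of them on 3 ribosomal RNA genes, against at most 13.0% in the other mice. *Dnmt3a*, the targeted gene, was at 93.4 to 131 CPM (the count scaled to a fixed library total after TMM normalization) in the 12 WT mice and at 34.5 to 53.9 CPM in the 13 mD3AKO mice, a 2.86-fold lower level (log2 fold change -1.52, SE 0.07, adjusted p = 1.5e-13). Throughout, log2 fold changes and adjusted p-values are from edgeR's quasi-likelihood F test with Benjamini-Hochberg adjustment over all tested genes, with called genes being those whose adjusted p was below 0.05. The counts of the 10 genes ranged from 54 reads for *Trp53* in mouse 15 to 43287 for *Ccng1*, and *Trp53* had the lowest total over all libraries, at 4355 reads. Only *Gadd45a* shared exon bases with another annotated gene, 337 bases with the antisense *E230016M11Rik*, whose counts came to 5.88% of those of *Gadd45a*. Whether counting used the strand is not given in the sources used here, so *Gadd45a* may hold reads of its antisense partner. The processed pseudogene *Trp53-ps* shared 8.79% of the 31-base words of *Trp53* and had 0 counts, so reads from such stretches could be split or dropped.

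Per length of exon, *Ccng1* was by far the most abundant of the genes in rested WT mice, at 280 ± 43.8 CPM per kilobase (SD, n = 5). Next came *Gadd45g* at 12.6 ± 7.16, *Sesn1* at 9.92 ± 3.75, *Mdm2* at 9.52 ± 0.306 and *Gadd45b* at 7.58 ± 3.69 CPM per kilobase. *Cdkn1a* was at 4.34 ± 1.94, *Gadd45a* at 4.17 ± 1.07, *Plk2* at 3.98 ± 0.597 and *Trp53inp1* at 3.16 ± 0.351 CPM per kilobase. The level of *Trp53* itself was the lowest at 1.37 ± 0.173 CPM per kilobase. In this order, the ranges of mean ± SD of neighbours were apart from *Ccng1* to *Gadd45g* and from *Trp53inp1* to *Trp53*, and those of all other neighbours overlapped.

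To ask which of these genes respond to exercise, exercised and rested mice were compared as the mean of both genotypes. *Gadd45g* and *Cdkn1a* rose and *Plk2* fell 60 minutes after exercise, while *Trp53*, its negative regulator *Mdm2* and the other 5 genes were not called. Thus 3 of 10 genes were called, where 10.4% of all tested genes were (932 higher and 767 lower). The median log2 fold change of the 10 genes was 0.02, against 0.00 over all tested genes, with 5 genes above and 5 below 0. In bulk tissue, fewer cells of a type and less RNA per cell cannot be told apart.

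*Gadd45g* (ENSMUSG00000021453.2, chr13:51846678-51848468 of mm10, + strand), which encodes a MAP3K4-binding stress sensor, had the largest rise of the 10. In the rested WT mice it was at 5.22, 9.69, 12.1, 21.3 and 25.5 CPM, and in the exercised WT mice at 22.3 to 33.1 CPM (median 29.5). In mD3AKO mice it was at 4.46 to 17.7 CPM (median 9.86) at rest and at 15.9 to 45.4 CPM (median 32.4) after exercise. All 13 exercised mice were above the median of the rested mice, and 10 of 13 were above every rested mouse. The rise was 2.51-fold (log2 fold change 1.33, SE 0.22, adjusted p = 1.5e-04). Its largest change within a genotype was in mD3AKO mice, at 1.69 (SE 0.31, adjusted p = 6.9e-04), and WT mice showed 0.96 (SE 0.32, adjusted p = 0.118), which was not called but was gained with a term for sex (1.23, adjusted p = 0.00298), in females alone (1.89, adjusted p = 0.00919) and without mouse 11 (1.25, adjusted p = 0.0389). The test of the difference between the genotypes is given further on.

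*Cdkn1a* (ENSMUSG00000023067.13, chr17:29090979-29100722, + strand), the p21 gene, was at 4.79, 7.79, 8.12, 11.4 and 16.1 CPM in the rested WT mice and at 9.49 to 21.1 CPM (median 16.1) after exercise. In mD3AKO mice it was at 7.97 to 14.2 CPM (median 11.4) at rest and at 14.0 to 25.9 CPM (median 18.3) after exercise. The groups overlapped in both genotypes, with 4 of 7 exercised WT mice and 4 of 6 exercised mD3AKO mice above every rested mouse of their genotype, and the highest rested mouse was WT female mouse 1. The rise over both genotypes was 1.64-fold (log2 fold change 0.72, SE 0.16, adjusted p = 0.00346). Within genotypes it was 0.70 (SE 0.24, adjusted p = 0.123) in WT and 0.73 (SE 0.22, adjusted p = 0.0462) in mD3AKO mice. The call in mD3AKO mice was lost when any of mice 3, 4, 6, 7, 8, 9, 11, 12, 15, 19, 20, 23, 24 or 25 was left out (adjusted p 0.0504 to 0.141), and also with library size alone (0.185), with no filter on expression (0.0525), with robust dispersion (0.0577) and in females alone (0.168). A call in WT mice was gained without mouse 1 (0.96, adjusted p = 0.0176) and with a term for sex (0.63, adjusted p = 0.0406). The call over both genotypes held without each of the 25 mice.

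*Plk2* (ENSMUSG00000021701.8, chr13:110395046-110400844, + strand), a polo-like kinase of the centrosome and of synapses, fell. In the rested WT mice it was at 14.8, 16.5, 17.0, 19.4 and 21.7 CPM, and in the exercised WT mice at 7.65 to 13.0 CPM (median 10.5). In mD3AKO mice it was at 16.0 to 23.4 CPM (median 18.4) at rest and at 8.11 to 16.8 CPM (median 13.7) after exercise. All 7 exercised WT mice and 5 of 6 exercised mD3AKO mice were below every rested mouse of their genotype. The fall over both genotypes was 1.57-fold (log2 fold change -0.66, SE 0.11, adjusted p = 1.0e-04). It was the only one of the 10 genes called in WT mice (-0.76, SE 0.15, adjusted p = 0.00343), where 3.59% of all genes were called. In mD3AKO mice, where 6.02% of all genes and 3 of the 10 were called, it was -0.55 (SE 0.15, adjusted p = 0.0236), a call that was lost without mouse 3, 6, 7 or 12 (adjusted p 0.0511 to 0.0597) and in males alone (-0.35, adjusted p = 0.145).

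**Figure D1:**
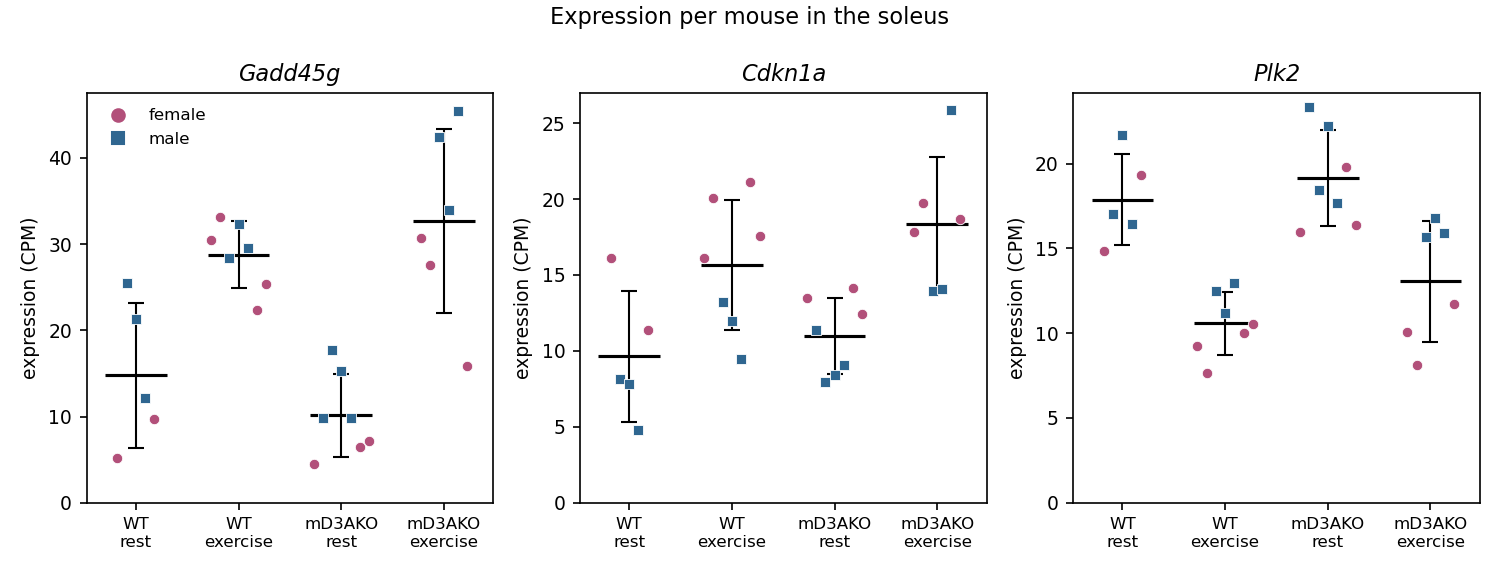
Expression (CPM, linear axis from 0) of *Gadd45g*, *Cdkn1a* and *Plk2* in each of the 25 mice by group, with females as circles and males as squares, and the mean and SD of each group in black. Exercised mice lie higher for *Gadd45g* and *Cdkn1a* and lower for *Plk2*, and the ranges overlap within both genotypes for *Gadd45g* and *Cdkn1a* and within mD3AKO mice for *Plk2*.

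*Trp53* and *Mdm2*, the regulatory loop itself, were not called. *Trp53* was at 4.51, 5.31, 5.51, 6.14 and 6.23 CPM in the rested WT mice, 4.35 to 5.47 CPM (median 4.68) in the exercised WT mice, 3.78 to 6.46 CPM (median 6.01) in the rested mD3AKO mice and 4.19 to 6.15 CPM (median 5.30) in the exercised mD3AKO mice. Its log2 fold change was -0.16 (SE 0.08, 95% interval -0.32 to -0.0020), with an unadjusted p of 0.0474 and an adjusted p of 0.226 in edgeR, and 2 of 13 exercised mice were above the rested median. *Mdm2* lay within 42.1 to 54.8 CPM in all 25 mice and had a log2 fold change of 0.06 (95% interval -0.02 to 0.14, adjusted p = 0.425). This interval ended far below the rise of *Cdkn1a*.

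*Sesn1* was at 24.8, 28.6, 33.3, 52.8 and 58.0 CPM in the rested WT mice and at 36.4 to 69.5 CPM (median 55.3) in the exercised WT mice. In mD3AKO mice it was at 27.9 to 76.0 CPM (median 32.3) at rest and 34.5 to 76.4 CPM (median 46.4) after exercise. All 13 exercised mice were above the rested median, but the values fell into a high and a low set, which were the sexes, and the change of 0.29 (SE 0.18, adjusted p = 0.384) was not called. With a term for sex it was called (0.24, adjusted p = 0.046). *Trp53inp1* ranged from 16.0 to 33.1 CPM over all mice with a log2 fold change of 0.18 (SE 0.09, adjusted p = 0.24), and 10 of 13 exercised mice were above the rested median. *Ccng1* ranged from 761 to 1280 CPM with -0.02 (95% interval -0.20 to 0.16, adjusted p = 0.943).

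The other 2 GADD45 genes did not follow *Gadd45g*. *Gadd45a* ranged from 4.37 to 9.94 CPM over the 25 mice, with a log2 fold change of -0.04 (95% interval -0.28 to 0.20, adjusted p = 0.911). *Gadd45b* was at 6.49, 10.5, 10.5, 10.7 and 22.0 CPM in the rested WT mice, 5.77 to 15.2 CPM (median 11.0) in the exercised WT mice, 10.1 to 20.5 CPM (median 13.4) in the rested mD3AKO mice and 5.58 to 25.5 CPM (median 15.5) in the exercised mD3AKO mice. Its exercised values reached beyond the rested ones at both ends, with 2 mice above every rested mouse and 2 below, and its change was -0.01 (SE 0.21, adjusted p = 0.987). In a fit of 8 groups including sex, females had -0.69 (adjusted p = 0.0606) and males 0.52 (adjusted p = 0.113), neither of them called. A fit of males alone gave 0.52, which was called (adjusted p = 0.0477).

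**Figure D2:**
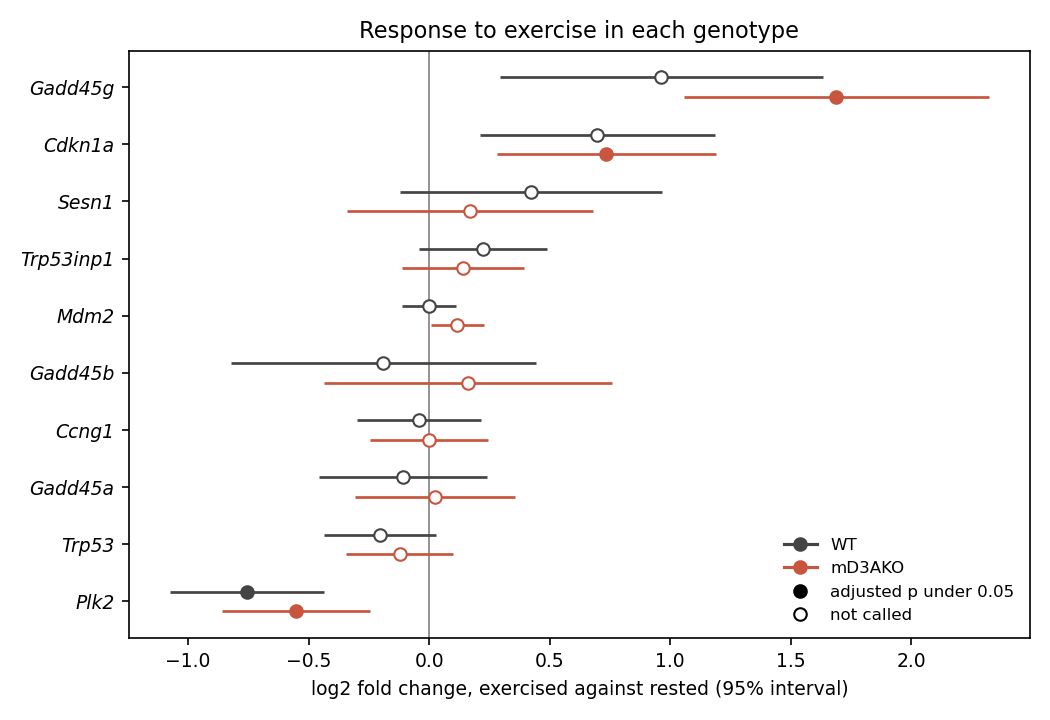
Log2 fold change of exercised against rested mice (points) with its 95% interval (lines) for each of the 10 genes, in WT mice (dark grey) and mD3AKO mice (red), from 1 edgeR fit. Filled points have an adjusted p under 0.05, which only *Plk2* reached in both genotypes, and the intervals of the genotypes overlap for every gene.

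Markers of other cells were looked at beside these changes. Of 8 endothelial markers, 5 fell after exercise, and their summed level was 436 to 580 CPM (median 511) in rested and 369 to 486 CPM (median 412) in exercised WT mice, and 430 to 559 CPM (median 498) in rested and 381 to 469 CPM (median 416) in exercised mD3AKO mice. Of 8 satellite cell markers 2 fell, with summed levels of 171 to 213, 157 to 218, 156 to 206 and 142 to 231 CPM in the same order of groups. Of the 8 tested immune markers 1 fell, and none of the *soleus* muscle, fibroblast, adipocyte, Schwann cell or blood markers was called. No marker of any list was at 0 in every library. Their part in the fall of *Plk2* or in the rises of *Gadd45g* and *Cdkn1a* was not tested. The 10 muscle markers summed to between 104672 and 177298 CPM in every library.

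Loss of *Dnmt3a* in muscle was compared next, to ask whether the levels or the response of these genes depended on it. None of the 10 genes was called for genotype, where 0.269% of all genes (44 of 16340) were. None of the 10 had an unadjusted p under 0.05 in edgeR, against 1018 of the 16340. DESeq2, run as an alternative, also called 0 of the 10. The largest difference was that of *Gadd45b*, 0.40 on the log2 scale for mD3AKO against WT (SE 0.21, 95% interval -0.04 to 0.84, adjusted p = 0.859). Over the alternatives it ranged from -0.23 in females alone to 0.79, without a call. *Plk2* differed by 0.20 (95% interval -0.02 to 0.42) and *Cdkn1a* by 0.21 (95% interval -0.12 to 0.54). Over the alternatives *Plk2* ranged from 0.054 to 0.28, and *Cdkn1a* from -0.024 in females alone to 0.53. Tighter bounds were obtained for *Mdm2*, at -0.01 (95% interval -0.09 to 0.07), and for *Trp53*, at 0.08 (95% interval -0.08 to 0.25).

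The interaction of exercise and genotype was called for 0 of the 10 genes and for 0% of all tested genes, while 403 of 16340 genes, and 0 of the 10, had an unadjusted p under 0.05 in edgeR. DESeq2 called 0 of the 10 as well. For *Gadd45g* the difference of responses, mD3AKO minus WT, was 0.73 on the log2 scale (SE 0.44, 95% interval -0.18 to 1.63, adjusted p = 1.00). This value was 0.44 without mouse 11, 0.94 without mouse 1 and 0.14 in females alone. For mD3AKO against WT, its level differed by -0.54 at rest (95% interval -1.21 to 0.12) and by 0.18 after exercise (95% interval -0.43 to 0.79). The corresponding difference of responses was 0.04 (95% interval -0.63 to 0.70) for *Cdkn1a* and 0.20 (95% interval -0.24 to 0.64) for *Plk2*. These intervals are wide, and the responses of the genotypes were therefore not shown to be alike.

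Sex was the other axis along which the genes varied. In a fit with 8 groups of genotype, exercise and sex, 5 of the 10 genes differed between females and males, where 8.15% of the 17389 genes tested in that fit did. This comparison was added after the data were seen. *Sesn1* and *Cdkn1a* were higher and *Gadd45g*, *Plk2* and *Ccng1* were lower in females. All males had mouse numbers from 7 to 19 and all females from 1 to 6 or from 20 to 25, so that sex and number block cannot be told apart. Between the sexes, 7 of 10 *soleus* muscle markers also differed (4 higher and 3 lower in females), with summed levels of 114229 to 177298 CPM in females and 104672 to 150688 CPM in males. Of the other lists, 1 of 8 satellite cell markers was higher and 1 of 6 blood markers lower in females (4 with an unadjusted p under 0.05, median log2 difference -0.54), and 0 of 7 Schwann cell markers was called in edgeR, where 6 had an unadjusted p under 0.05 (median log2 difference 0.76). Over all genes of that fit, 3897 of 17389 had an unadjusted p under 0.05 for sex in edgeR. The share of counts on ribosomal RNA genes was 7.75 to 11.0% in females and 9.46 to 13.0% in males other than mouse 15. The part of these in the result was not tested.

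*Sesn1* separated the sexes without overlap. It was at 50.4 to 76.4 CPM (median 56.6) in the 12 females and at 24.8 to 42.5 CPM (median 33.3) in the 13 males, a log2 difference of 0.81 (SE 0.08, adjusted p = 4.9e-07). The ranges of both number blocks of females overlapped, at 51.5 to 76.4 CPM for mice 1 to 6 and 50.4 to 67.7 CPM for mice 20 to 25. *Cdkn1a* was at 11.4 to 21.1 CPM (median 16.8) in females and 4.79 to 25.9 CPM (median 9.49) in males, with a difference of 0.56 (SE 0.11, adjusted p = 0.00244). In contrast, *Gadd45g* was lower in females by 0.85 on the log2 scale (female against male -0.85, SE 0.14, adjusted p = 6.6e-04). At rest, females were at 4.46 to 9.69 CPM and males at 9.86 to 25.5 CPM. After exercise, females were at 15.9 to 33.1 CPM and males at 28.4 to 45.4 CPM. *Plk2* (-0.37, SE 0.07, adjusted p = 0.00312) and *Ccng1* (-0.29, SE 0.07, adjusted p = 0.0106) were also lower in females, and for *Ccng1* 8 of 12 females were below every male. These were all 6 of mice 20 to 25, at 761 to 914 CPM, and mice 2 and 5 at 889 and 867 CPM. The other mice of 1 to 6 reached up to 1011 CPM. The ranges of both blocks overlapped, and a difference between the blocks was not tested. The call of *Ccng1* was lost without mouse 20 (adjusted p = 0.0555), and with library size alone neither *Ccng1* (-0.16, adjusted p = 0.16) nor *Plk2* (-0.25, adjusted p = 0.199) was called.

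The exercise groups were then compared within each sex. For *Gadd45g*, all 7 exercised females (15.9 to 33.1 CPM) were above every rested female, and all 6 exercised males (28.4 to 45.4 CPM) were above every rested male. For *Cdkn1a*, all 7 exercised females (16.1 to 21.1 CPM) were above every rested female (11.4 to 16.1 CPM, the nearest pair at 16.115 and 16.111 CPM), and 5 of 6 exercised males were above every rested male. For *Plk2*, all 7 exercised females (7.65 to 11.7 CPM) and 5 of 6 exercised males (11.2 to 16.8 CPM) were below every rested mouse of their sex. In females, 2 of the 10 genes were called for exercise (3.5% of all genes), *Gadd45g* (1.97, SE 0.22) and *Plk2* (-0.83, SE 0.11). *Cdkn1a* had 0.47 there (SE 0.16, adjusted p = 0.118), but was called in a fit of the females alone (0.46, adjusted p = 0.0237). In males, 4 of the 10 were called (6.41% of all genes), *Gadd45g* (1.11, SE 0.19), *Cdkn1a* (0.85, SE 0.15), *Plk2* (-0.47, SE 0.10) and *Sesn1* (0.40, SE 0.11, adjusted p = 0.0258). All 6 exercised males were above every rested male for *Sesn1*, at 34.5 to 42.5 against 24.8 to 33.3 CPM, while in females the ranges were 50.4 to 76.4 and 52.8 to 76.0 CPM.

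**Figure D3:**
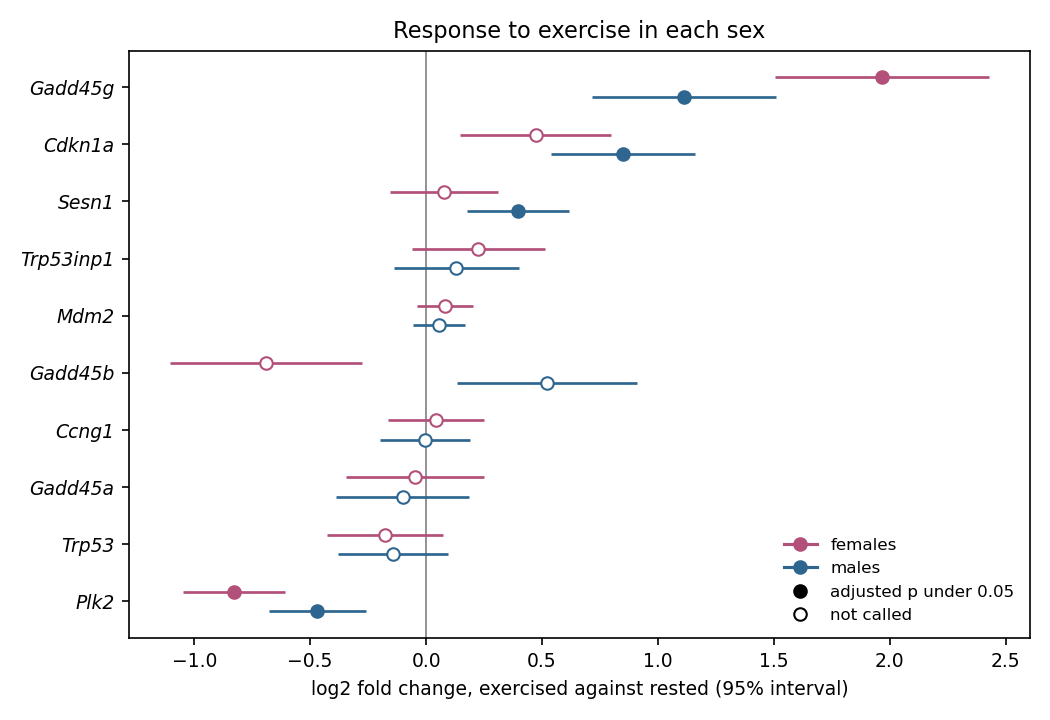
Log2 fold change of exercised against rested mice (points) with its 95% interval (lines) for each of the 10 genes in females (pink) and males (blue), from the edgeR fit with 8 groups. Filled points have an adjusted p under 0.05. *Gadd45b* is the gene whose 2 intervals lie on opposite sides of 0, and neither of its points was called.

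Whether the response differed between the sexes was tested directly. None of the 10 genes was called, where 0.046% of all genes (8 of 17389) were. In edgeR, 3 of the 10 had an unadjusted p under 0.05, against 570 of the 17389. *Gadd45b* had the largest difference. In females it was at 10.1 to 22.0 CPM (median 12.8) at rest and 5.58 to 11.0 CPM (median 9.94) after exercise, with 5 of 7 exercised females below every rested female. In males it was at 6.49 to 20.5 CPM (median 11.8) at rest and 11.8 to 25.5 CPM (median 17.8) after exercise, with 5 of 6 exercised males above the rested median. The log2 fold changes were -0.69 (SE 0.20, adjusted p = 0.0606) in females and 0.52 (SE 0.19, adjusted p = 0.113) in males, and their difference was -1.21 (SE 0.27, 95% interval -1.78 to -0.64, adjusted p = 0.228). The adjusted p of this difference moved with the processing, from 0.00602 without a filter on expression and 0.0141 in DESeq2 to 0.503, and from 0.0382 without mouse 20 to 1.00 when other mice were left out. *Gadd45g* (0.86, SE 0.29) and *Plk2* (-0.36, SE 0.15) each had an adjusted p of 1.00 for this difference.

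**Figure D4:**
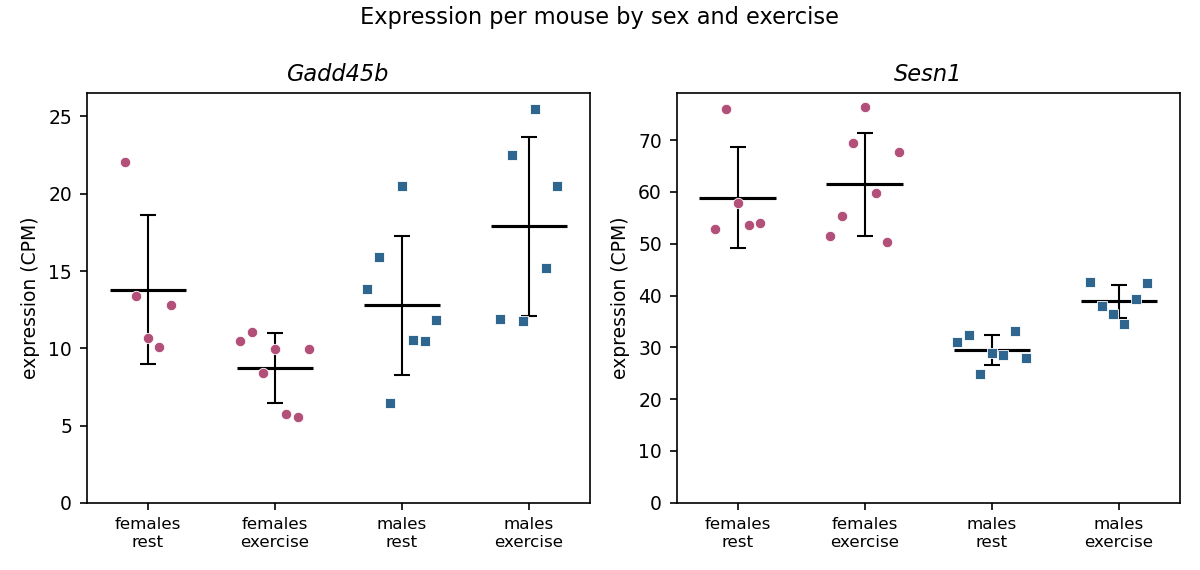
Expression (CPM, linear axis from 0) of *Gadd45b* and *Sesn1* in each mouse by sex and exercise, genotypes pooled, with mean and SD in black. The 12 females lie above the 13 males for *Sesn1*, and for *Gadd45b* the exercised and rested mice overlap in both sexes, with medians of 9.94 against 12.8 CPM in females and 17.8 against 11.8 CPM in males.

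The wider pathway was read from lists of 78 genes, of which 71 were tested. Exercise changed 6 of them, 4 higher and 2 lower, which is 8.45% of those tested, against 10.4% of all genes. The median log2 fold change was 0.02. None of the 71 was called for genotype in edgeR, where 8 had an unadjusted p under 0.05, against 1018 of all 16340 tested genes.

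Among 18 tested regulators and partners of p53, only *Chek2*, the checkpoint kinase that phosphorylates p53, was called. It was at 2.10 to 3.90 CPM in rested and 1.77 to 2.72 CPM in exercised mice (log2 fold change -0.48, SE 0.09, adjusted p = 5.0e-04), and it was of like size but not called in males alone (-0.44, adjusted p = 0.0695) and in females alone (-0.50, adjusted p = 0.0936). The most abundant of this list, the deubiquitinase *Usp7* (0.03, adjusted p = 0.644) and the acetyltransferase *Crebbp* (0.07, adjusted p = 0.681), were not called.

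Of the p53 targets of arrest and feedback, 2 of 9 tested genes were called and in opposite directions. *Btg2*, an antiproliferative and immediate early gene, was at 24.7 to 83.7 CPM (median 38.6) in rested and 65.0 to 541 CPM (median 207) in exercised mice, with 11 of 13 exercised mice above every rested one. Its rise of 6.00-fold (log2 fold change 2.58, SE 0.35, adjusted p = 7.4e-06) was the largest of the lists, and was not called in females alone (1.38, adjusted p = 0.0594). Over the alternatives other than single mice left out, the value ranged from 1.38 to 3.43. The difference of responses, female minus male, was -2.05 (SE 0.44, adjusted p = 0.157) and was not called. *Trp53i11* fell from a median of 12.0 to 7.88 CPM (-0.55, SE 0.16, adjusted p = 0.0251), a call lost without mouse 13 (-0.48, adjusted p = 0.068), with library size alone (-0.60, adjusted p = 0.0693) and in either sex alone.

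Of 11 death-related targets, only the death receptor gene *Fas* was called. It rose from 4.54 to 8.00 CPM (median 5.58) in rested to 7.94 to 10.7 CPM (median 9.17) in exercised mice, with 12 of 13 exercised mice above every rested one (log2 fold change 0.64, SE 0.07, adjusted p = 1.6e-07). *Aen* (0.09, adjusted p = 0.23) and *Eda2r* (0.12, adjusted p = 0.812), the most abundant of that list, were not called. Of 9 targets on the list of DNA repair and nucleotides, only *Ercc5*, an endonuclease of nucleotide excision repair, was called. It was at 21.9 to 27.0 CPM in rested and 26.5 to 32.0 CPM in exercised mice (0.31, SE 0.04, adjusted p = 3.2e-06). *Rps27l* (0.05, adjusted p = 0.714) and *Rrm2b* (-0.05, adjusted p = 0.846) were not called.

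None of the 7 tested metabolic targets and none of the 10 tested paralogs of the genes was called, with *Trp53inp2* at 0.10 (adjusted p = 0.507), *Tigar* at -0.07 (adjusted p = 0.8) and *Sesn3* at 0.00 (adjusted p = 0.991). Of 11 tested GADD45 partners, the sliding clamp gene *Pcna* was called with a small rise from a median of 16.7 to 18.6 CPM (0.15, SE 0.04, adjusted p = 0.0226), a call lost without mouse 11 (adjusted p = 0.0505) or mouse 20 (adjusted p = 0.0559) and under 4 of the 8 other settings. The p38 kinase gene *Mapk12* (0.04, adjusted p = 0.809) and its activator *Map2k3* (0.10, adjusted p = 0.573) were not called. None of the 8 tested of 10 cell cycle genes was called, and the summed level of all 10 was 9.85 to 14.7 CPM in rested and 9.28 to 21.2 CPM in exercised WT mice, and 9.27 to 32.0 CPM in rested and 11.0 to 12.7 CPM in exercised mD3AKO mice. The median log2 fold change of the 8 was -0.32, against 0.00 over all tested genes. The most abundant of this list, *Mcm2* and *Rrm2*, had -0.05 (adjusted p = 0.859) and -0.24 (adjusted p = 0.296).

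**Figure D5:**
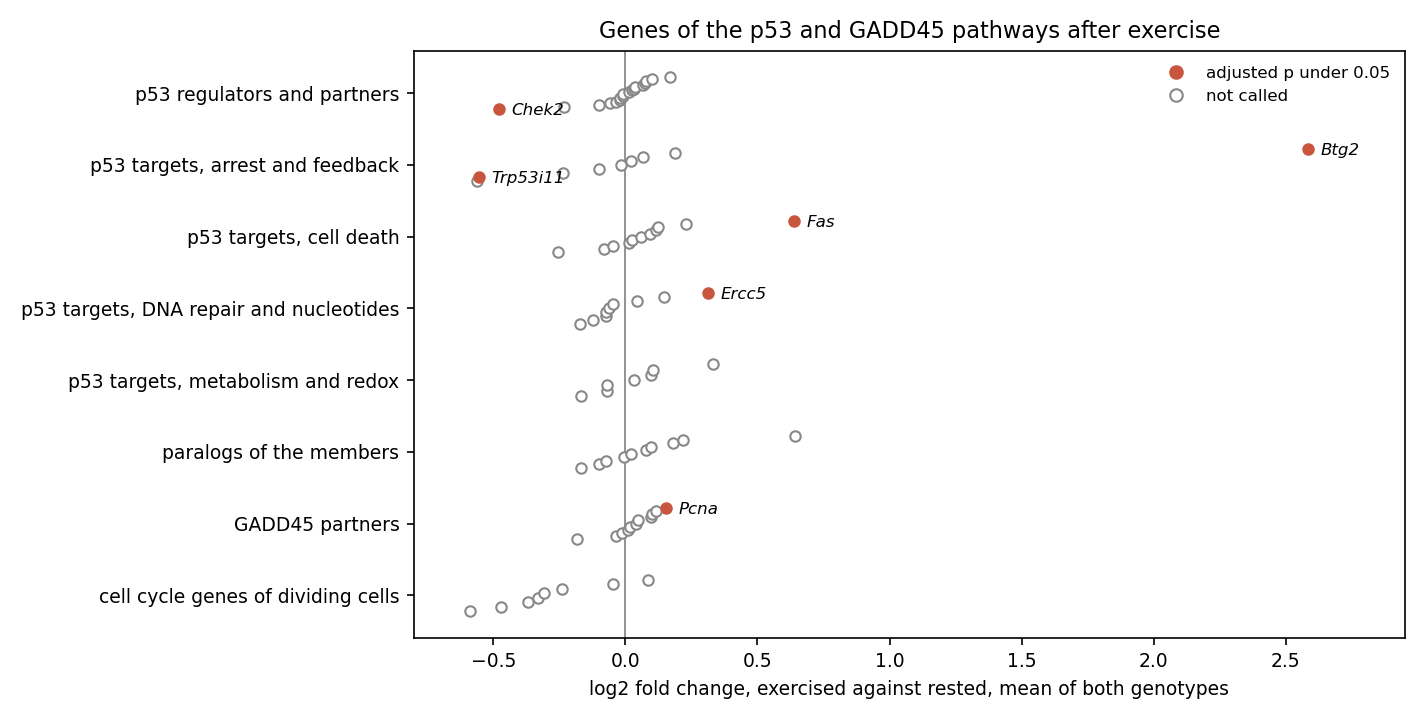
Log2 fold change of exercised against rested mice, as the mean of both genotypes, for each tested gene of 8 lists. Filled and named points have an adjusted p under 0.05, namely *Chek2*, *Btg2*, *Trp53i11*, *Fas*, *Ercc5* and *Pcna*, and most other points lie near 0. The 8 tested cell cycle genes have a median of -0.32.

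Over the 25 libraries, the genes whose log2 CPM ran most closely with each member were found among 12807 genes whose mean log2 CPM was 0 or more. These are descriptions over libraries that share exercise, genotype, sex and depth. *Gadd45g* ran with *Sgk1* (Pearson r = 0.945) and *Wee1* (r = 0.922), which both rose after exercise (1.24 and 1.53) and were lower in females. *Cdkn1a* ran with *Prdm15* (r = 0.916) and *Sdf2l1* (r = 0.894), and *Plk2* with *Ets2* (r = 0.892), which fell by 0.60 after exercise, and *Gypc* (r = 0.829). *Sesn1* ran with the X-linked histone demethylase genes *Kdm5c* (r = 0.921) and *Kdm6a* (r = 0.885), which were higher in females by 0.69 and 0.89. *Ccng1* ran with *Dld* (r = 0.949) and *Isca1* (r = 0.932), and *Mdm2* with *Etf1* (r = 0.847) and *Hsp90ab1* (r = 0.843). For *Trp53* the nearest genes were *Psd4* and *Spi1* (both r = 0.80), for *Trp53inp1* *Nudt21* (r = 0.768) and *Pank3* (r = 0.715), for *Gadd45a* *Fance* (r = 0.748) and *Colgalt1* (r = 0.709), and for *Gadd45b* *Cry1* (r = 0.725) and *Fam19a5* (r = 0.677).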

How the data were processed

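RNA of whole *soleus* was depleted of ribosomal RNA, made into strand-specific libraries and sequenced from both ends (75 bp each). The authors deposited raw counts per gene and library for mm10 and GENCODE release M15, and their processing notes name FastQC 0.11.5, STAR 2.5.3a and featureCounts 1.5.3. Exon length came with the counts, and 0 columns belonged to other samples. Symbols were matched by gene ID (52403 of 52636 genes). The software was R 4.3.3 with edgeR 4.0.16 and its dependency limma 3.58.1. Genes were kept by filterByExpr (minimum count 10, minimum total 15), normalized with TMM, and fitted with 1 mean per group of genotype and exercise and no term for sex, since for differential expression the study names genotype, exercise and their interaction. A further fit had 8 groups including sex. The filter follows the smallest group, so these fits tested 16340 and 17389 genes. The main comparisons test a different set of genes from that of the study. The study gives 17389 genes above its expression threshold, the same number as in the fit of 8 groups. SE was obtained from each estimate and its F statistic (the absolute log2 value over the root of F). Adjustment of p-values (Benjamini-Hochberg) covered every tested gene. The CPM given here were calculated with the TMM-scaled totals. The median total was 32189360 counts per library. Replicates are separate mice.

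The 10 genes and the lists were chosen with earlier results of these data known. Named besides the 10 are *Dnmt3a*, up to 6 called genes per list with the lowest adjusted p for exercise or genotype, the 2 most abundant genes of a list with fewer than 2 called, and the 2 genes most correlated with each member. The marker genes of other cells enter as counts and summed levels. Alternatives were RLE normalization, library size alone, DESeq2 1.42.0, no filter on expression, a term for sex, each sex alone, robust dispersion, and each mouse left out. DNA methylation of these mice was not analysed here.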

Additional observations from a re-analysis of the deposited data

Results flagged for a closer look

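Within the 4 groups, the CPM of each of the 10 genes was searched for single mice that stood apart from their group by Dixon's criterion. Of 40 sets of values 5 held such a mouse, and chance marks about 1 set in 20, or 2 of 40. *Trp53* was at 3.78 CPM in mouse 15, a rested mD3AKO male, with the next mouse of the group at 5.34 CPM. The same mouse, whose library had the high ribosomal RNA share, had 1280 CPM of *Ccng1*, with the next at 1046 CPM. *Ccng1* was also high in mouse 17, an exercised mD3AKO male, at 1238 CPM with the next at 1011 CPM. *Mdm2* was at 45.7 CPM in mouse 20, a rested WT female, where the other 4 mice began at 48.7 CPM. *Gadd45b* was at 22.0 CPM in mouse 1, the other rested WT female, with the next at 10.7 CPM.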

How the results depend on the processing

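*Gadd45g*, *Cdkn1a* and *Plk2* were called for exercise under each alternative and without each mouse, mouse 15 included, but *Cdkn1a* was not called for exercise in females within the fit of 8 groups (adjusted p = 0.118). A term for sex gave 4 genes, adding *Sesn1*, and males alone gave 5, adding *Gadd45b* and *Sesn1*. None of the 10 was called for genotype or the interaction under any of these alternatives. In WT mice 3 genes were called with a term for sex and 2 in females alone, and 1 to 2 without single mice. In mD3AKO mice 1 to 3 were called without single mice. For the difference of responses between the sexes, 1 gene (*Gadd45b*) was called without a filter on expression and 1 in DESeq2, and 0 to 1 without single mice. For sex, 3 genes were called with library size alone, up to 6 under the other alternatives, and 4 to 6 without single mice. *Gadd45b* was gained for sex with no filter on expression (adjusted p = 0.044) and without mouse 1 (adjusted p = 0.0187). *Gadd45a* was gained without mouse 3, 10 or 22 (adjusted p 0.0282 to 0.0467). With females alone, 2 pathway genes were called for exercise. How many of all tested genes each alternative called was not counted, so these numbers of genes have no background share beside them. Some values changed sign. For exercise, *Ccng1* was 0.014 with a term for sex and 0.032 in females alone, against -0.02, and *Gadd45b*, at -0.01 over both sexes, was 0.52 in males alone (adjusted p = 0.0477). For genotype, females alone gave -0.23 for *Gadd45b* and -0.024 for *Cdkn1a*. At the highest, the alternatives gave 0.79 for *Gadd45b* and 0.53 for *Cdkn1a*, neither of them called. Without single mice, exercise values ranged from -0.10 to 0.025 for *Gadd45a*, -0.11 to 0.15 for *Gadd45b* and -0.061 to 0.013 for *Ccng1*. The causes were not tested, except that each sex alone holds fewer mice. No paired analysis was possible because each mouse has its own number and none is shared between groups. *Trp53* had the fewest reads in total of the 10 genes, with 54 to 253 per library.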

Other observations

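Beyond the 10 genes, 6 of 73 tested pathway genes differed between females and males (8.22%, against 8.15% of all genes), and these were named after their values were seen. Only *Sesn3*, a paralog of *Sesn1*, was higher in females, by 0.33 on the log2 scale (SE 0.06, adjusted p = 0.00118). *Plk3*, a paralog of *Plk2*, had the largest difference at -0.96 (SE 0.20, adjusted p = 0.00497) and a low level. *Trp53inp2* (-0.26, adjusted p = 0.00542), the p38 activator *Map2k3* (-0.26, adjusted p = 0.0209), the p53 kinase *Hipk2* (-0.38, adjusted p = 0.0306) and the ubiquitin ligase *Cop1* (-0.11, adjusted p = 0.041) were lower in females. Mouse number block and sex cannot be told apart for these genes either.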
